A study of Rattus norvegicus with 12 samples.

Results

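The 34 genes described here are read as signs of unfolded protein and amino acid stress, and they form 2 lists. The ATF4 and amino acid list holds 21 genes, Atf3 to Cebpb, and the ER chaperone list holds 13, Hspa5 to Creld2. All probe sets of the array whose single gene symbol is on a list were taken, which gave 44 of the 31042 probe sets that are not controls. All 34 genes were on the array, out of 14217 genes with a symbol of their own, and 42 of the 44 probe sets passed the filter on dim signals. A group is called dim for a probe set where all 3 of its arrays lay under their own 40th percentile. The untested probe sets were the dimmest of Slc7a1, dim in every group, and of Sesn2, dim in all but differentiated spinal cord. The brightest probe set stands for its gene below, and each of the 34 that do so was tested.

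Neural stem cells (NSCs), which divide in culture and can form neurons, astrocytes and oligodendrocytes, were profiled on 12 Affymetrix Rat230_2 arrays, where a probe set reads the 3' part of a transcript. All cultures came from Sprague Dawley rats aged 3 to 5 days after birth, with no transgene or drug named in the labels. The 4 groups were differentiated spinal cord, proliferative spinal cord, differentiated brain and proliferative brain cultures, with 3 arrays each. The titles mark differentiation with the romanised Chinese word "fenhua", and neither the procedure nor its length is stated in the labels. The labels do not tell whether the 3 arrays of a group stem from different animals or cultures, so the p-values reflect spread between arrays alone, which may be technical.

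Proteins that enter the endoplasmic reticulum (ER) are folded by chaperones and disulfide isomerases. When unfolded proteins accumulate there, the sensors IRE1, ATF6 and PERK raise the transcription of these folding factors through XBP1 and cleaved ATF6, and slow translation through phosphorylated eIF2. Shortage of an amino acid reaches eIF2 through another kinase, GCN2. Phosphorylated eIF2 favours translation of the factor ATF4, whose target genes import and make amino acids, charge tRNAs and feed back on the response. Oligodendrocytes and cells that secrete matrix are known for a heavy load on this system. Several of these genes also answer to other pathways, so their RNA is no direct measure of stress.

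Values below are deposited log2 signals, and 1 unit is a doubling. A change is the difference of group means from a limma fit over all 20834 probe sets tested, given with its SE, and a gene rose, fell or differed only where its Benjamini-Hochberg adjusted p was under 0.05. Array medians were 6.87 to 7.22. As bulk measurements, the values cannot tell fewer cells of a type from less RNA per cell. Signals of different genes are not compared, since probe sets differ in brightness.

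The array of proliferative spinal cord replicate 1 stood apart. On it 14 of the 34 genes lay more than 0.5 log2 from both other arrays of its group, 10 of them high and 4 low, whereas 19.7% of all probe sets tested did so. On the other 11 arrays between 0 and 3 of the 34 lay that far out, beside 4.88% to 14.5% of all probe sets tested. The high genes were Trib3, Asns, Chac1, Psat1, Phgdh, Shmt2, Mthfd2, Slc7a5, Slc7a1 and Slc3a2, and the low ones were Atf3, Ddit4, Nupr1 and Cebpb. Calls of the 34 genes that its absence changed are given both ways with the gene or its contrast.

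Cell type markers moved with the groups as well. Of 9 neural stem cell markers on the array, Sox1 was dim in all groups and Hes5 in all but differentiated brain, and the other 7 were not dim in any group. Of the 8 tested, 5 rose and 1 (Nes) fell in brain differentiation, beside 23.7% and 23.1% of all probe sets tested. In spinal cord 2 rose and 4 fell, beside 18.3% and 22.0%. In differentiated spinal cord 7 were lower than in differentiated brain, beside 22.9%. The mean log2 level of these markers was 9.39 to 9.66 in differentiated spinal cord, 9.96 to 10.19 in proliferative spinal cord, 11.23 to 11.31 in differentiated brain and 10.58 to 11.11 in proliferative brain cultures. A list's sum below is the log2 of its summed linear signals, which the brightest probe sets lead. The stem cell sum was 15.32 to 15.39 in differentiated and 15.39 to 15.44 in proliferative spinal cord. In brain it was 15.97 to 16.18 in differentiated and 15.65 to 15.90 in proliferative cultures. The sum of 12 fibroblast, meningeal and mural markers was 16.93 to 17.11 in differentiated spinal cord, 14.89 to 15.96 in proliferative spinal cord, 12.37 to 12.59 in differentiated brain and 12.02 to 12.68 in proliferative brain cultures. None of these markers was dim in either spinal cord group, whereas Dcn, Lum, Ogn, Lox and Pdgfrb were dim in differentiated brain and Lum, Ogn and Pdgfrb in proliferative brain. The oligodendrocyte sum was 16.09 to 16.30 in differentiated spinal cord, 16.14 to 16.26 in proliferative spinal cord, 16.05 to 16.25 in differentiated brain and 13.27 to 13.71 in proliferative brain cultures, where Mog and Mobp were dim. In brain 11 of these 12 markers rose and 0 fell, beside 23.7% and 23.1% of all probe sets tested. In spinal cord the sum hides falls of 5 of 12 (Mog, Sox10, Olig1, Olig2 and Cspg4) and 1 rise, beside 22.0% and 18.3% of all probe sets tested. The mean level of these markers there was 10.50 to 10.74 in differentiated and 11.44 to 11.54 in proliferative cultures. Neuron markers summed to 11.71 to 12.11 in differentiated spinal cord, 13.42 to 13.52 in proliferative spinal cord, 13.18 to 13.38 in differentiated brain and 13.23 to 14.06 in proliferative brain cultures. In brain 7 of these 12 markers fell and 2 rose, beside 23.1% and 23.7% of all probe sets tested. Their mean level was 8.09 to 8.29 in differentiated and 8.95 to 9.90 in proliferative brain cultures. In spinal cord 6 fell and 0 rose, beside 22.0% and 18.3%. Microglia markers summed to 11.69 to 11.75 in differentiated spinal cord, 11.89 to 12.82 in proliferative spinal cord, 10.62 to 10.82 in differentiated brain and 9.04 to 9.63 in proliferative brain cultures. All 9 tested were higher in proliferative spinal cord than proliferative brain, beside 19.4% of all probe sets tested. Astrocyte markers summed to 15.56 to 15.83 in differentiated spinal cord, 14.45 to 15.34 in proliferative spinal cord, 16.80 to 16.91 in differentiated brain and 14.80 to 15.13 in proliferative brain cultures. In spinal cord 6 of these 9 markers rose, and Gfap and S100b fell, beside 18.3% and 22.0% of all probe sets tested. In brain 8 rose and 0 fell, beside 23.7% and 23.1%. The 5S rRNA control, which varies with RNA preparation, read 8.09 to 8.75 in differentiated and 8.65 to 9.38 in proliferative spinal cord cultures, and 7.85 to 8.19 in differentiated and 9.50 to 11.02 in proliferative brain cultures. The 3' minus 5' log2 signal of the Actb control was 0.99 to 1.01 in differentiated and 0.69 to 0.99 in proliferative spinal cord cultures. In brain it was 0.73 to 0.81 in differentiated and 0.77 to 0.84 in proliferative cultures. For Gapdh it was -0.13 to 0.13 over all arrays. The part of these cells and of RNA quality in the results below was not tested.

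Most ER chaperone genes fell in brain differentiation. Of 13 genes 10 fell and 0 rose (76.9% fell), beside 23.1% of all probe sets tested that fell and 23.7% that rose (46.9% either way). Their median change was -0.42 log2, beside 0.00 over all probe sets, and at an unadjusted p under 0.05 limma also found 0 that rose. In the spinal cord, 4 of 13 rose and 3 fell, beside backgrounds of 18.3% and 22.0% (40.3% either way), and the median change was -0.12, beside -0.05 for all. The responses of the 2 tissues differed for 8 genes, each more positive in spinal cord, and 0 were more negative (background 18.8% and 21.7%, 40.5% either way; unadjusted, also 0). The median difference of responses was 0.56, beside -0.04 over all probe sets. Without proliferative spinal cord replicate 1 the spinal cord counts were 2 risen and 4 fallen, the brain count was still 10, and the responses differed for 7 genes.

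**Figure D1:**
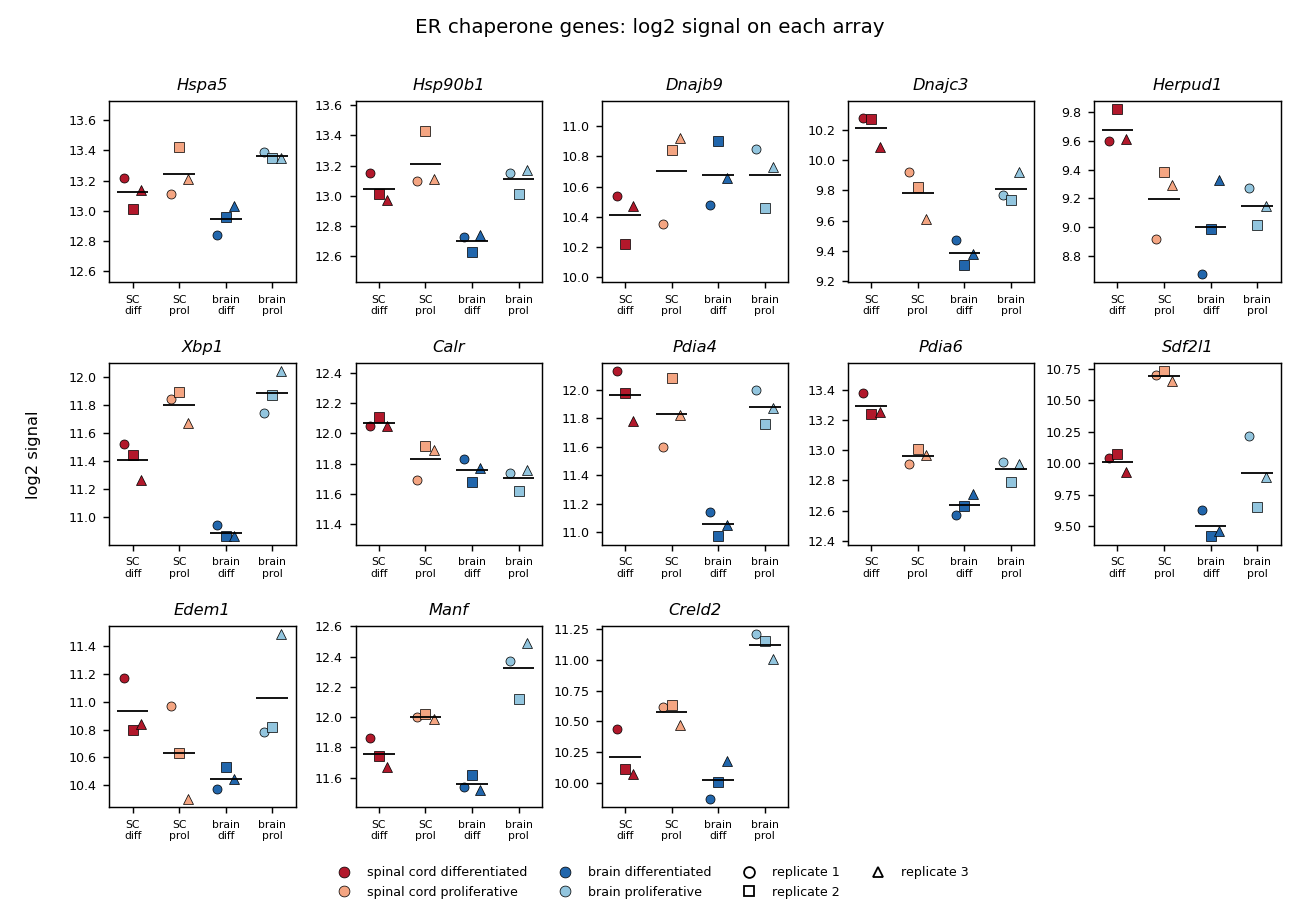
Log2 signal (vertical axis) of each of the 13 ER chaperone genes, 1 panel a gene, in differentiated and proliferative spinal cord (SC) and differentiated and proliferative brain cultures. Points are arrays and bars are group means. The differentiated brain group has the lowest mean in 11 of 13 panels.

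Promoter sequences of RefSeq (assembly GRCr8, 250 bases before to 50 after the start) were available for 31 of the 34 genes, all but Atf3, Manf and Pdia6. The ER stress response element, searched as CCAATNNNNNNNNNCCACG on both strands, lay in 6 of 11 ER chaperone promoters and in 0 of 20 on the ATF4 list, beside 0.0657% of 33469 promoters. CCAAT and CCACG are parts of this element. It is known from promoters of ER chaperone genes, so its presence here is a description only. Any further promoter entry of a listed gene was left out, whereas the shares of all promoters, here and below, count every entry. The stretches below are shown because 6 of these promoters share their letters. Capitals mark the match, and each line reads 5' to 3' on the strand named.
Hspa5 (chr3:38452963-38453001, plus strand): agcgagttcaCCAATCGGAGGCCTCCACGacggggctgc
Hsp90b1 (chr7:23012441-23012479, minus strand): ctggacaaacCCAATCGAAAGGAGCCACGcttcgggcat
Hsp90b1 (chr7:23012337-23012375, plus strand): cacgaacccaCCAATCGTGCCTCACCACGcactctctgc
Xbp1 (chr14:84604548-84604586, plus strand): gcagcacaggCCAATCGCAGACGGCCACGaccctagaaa
Calr (chr19:40213125-40213163, minus strand): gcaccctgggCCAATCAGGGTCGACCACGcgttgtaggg
Dnajc3 (chr15:102432524-102432562, plus strand): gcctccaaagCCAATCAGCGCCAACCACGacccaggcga
Creld2 (chr7:121789229-121789267, minus strand): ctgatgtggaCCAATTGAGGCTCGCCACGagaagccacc
Counted along the gene, the match begins at -232 from the start in Calr and at -43 in Hspa5, with the others in between. In a line printed on the strand opposite its gene, as for Calr, that base is the last capital. A related element, ATTGG and CCACG with 1 base between them, was in the Herpud1 promoter, in 1 of 11 ER chaperone promoters and in 0.0508% of all promoters.
Herpud1 (chr19:10614811-10614841, minus strand): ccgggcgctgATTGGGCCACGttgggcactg
The UPR element core TGACGTGG was in 0 promoters of either list and in 0.595% of all. Of the 6 genes with the long element, 5 fell in brain and Calr did not pass the test there, beside 10 of all 13 ER chaperone genes and 23.1% of all probe sets that fell. In spinal cord they did not share 1 pattern: Dnajc3 and Calr rose, Xbp1 and Creld2 fell, and Hspa5 and Hsp90b1 did not pass.

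Among chaperones, Hspa5 encodes BiP, the main ER HSP70 and a classic marker of ER stress. Hspa5 read 13.22, 13.01 and 13.14 in differentiated spinal cord cultures, against 13.11, 13.42 and 13.21 in proliferative ones. Brain Hspa5 was 12.84, 12.96 and 13.03 in differentiated cultures, against 13.39, 13.35 and 13.35 in proliferative ones. All differentiated brain arrays lay below all proliferative ones, and the spinal cord groups overlapped. The fall in brain was 1.34-fold (-0.42 ± 0.09, adjusted p = 0.0017), and no spinal cord change passed (-0.12 ± 0.09, adjusted p = 0.305). Hsp90b1, the ER HSP90 also called GRP94, averaged 12.70 ± 0.06 in differentiated and 13.11 ± 0.08 in proliferative brain cultures (SD, n = 3 each), a fall of similar measured size (-0.41 ± 0.10, adjusted p = 0.0031). In spinal cord Hsp90b1 did not pass the test (-0.17, adjusted p = 0.185). Quantile normalization brought both spinal cord changes past it, at -0.26 for Hspa5 (adjusted p = 0.0286) and -0.31 for Hsp90b1 (adjusted p = 0.0108).

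Of the disulfide isomerases, Pdia4 stood far lower in differentiated brain cultures than in the other groups. Pdia4 read 12.13, 11.98 and 11.78 in differentiated spinal cord cultures, against 11.60, 12.08 and 11.82 in proliferative ones. Brain Pdia4 was 11.14, 10.97 and 11.05 in differentiated cultures, against 12, 11.76 and 11.87 in proliferative ones. The 3 differentiated brain arrays were the lowest of the 12. Pdia4 fell in brain (-0.82 ± 0.12, adjusted p = 1.14e-04), did not pass in spinal cord (0.13, adjusted p = 0.435), and the difference of responses passed (0.95 ± 0.18, adjusted p = 7.29e-04). Pdia6, another isomerase, which also acts on the sensor IRE1, moved in opposite directions in the tissues. Pdia6 was 13.38, 13.24 and 13.25 in differentiated spinal cord cultures, against 12.91, 13.01 and 12.97 in proliferative ones. Brain Pdia6 read 12.57, 12.63 and 12.71 in differentiated cultures, against 12.92, 12.79 and 12.91 in proliferative ones. Neither pair of groups overlapped. Pdia6 rose in spinal cord (0.32 ± 0.07, adjusted p = 0.00348) and fell by a small amount in brain (-0.24 ± 0.07, adjusted p = 0.0183), and the responses differed by 0.56 ± 0.10 (adjusted p = 8.38e-04). The brain call was lost in 4 of 18 alternatives, with adjusted p up to 0.0688.

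Dnajc3, the J-domain co-chaperone p58IPK, moved in opposite directions, as Pdia6 did. Dnajc3 was 10.28, 10.27 and 10.09 in differentiated spinal cord cultures, against 9.92, 9.82 and 9.61 in proliferative ones. Brain Dnajc3 was 9.47, 9.31 and 9.38 in differentiated cultures, against 9.77, 9.74 and 9.92 in proliferative ones. Every differentiated spinal cord array was above, and every differentiated brain array below, the proliferative arrays of its tissue. Dnajc3 rose in spinal cord (0.43 ± 0.11, adjusted p = 0.00678), fell in brain (-0.42 ± 0.11, adjusted p = 0.00657) and differed in response (0.86 ± 0.16, adjusted p = 6.91e-04). Dnajb9, or ERdj4, a J protein that restrains IRE1, was the 1 gene of the 34 called in none of the 5 contrasts, with a brain change of 0.00 ± 0.16 and a spinal cord change of -0.29 ± 0.16. Without proliferative spinal cord replicate 1 the spinal cord change of Dnajb9 was -0.47 (adjusted p = 0.0189). Calr, the calcium-binding lectin chaperone calreticulin, averaged 12.07 ± 0.03 in differentiated and 11.83 ± 0.12 in proliferative spinal cord cultures (SD, n = 3 each), a rise (0.24 ± 0.08, adjusted p = 0.0391) that 8 of 18 alternatives kept. Without proliferative spinal cord replicate 1 it was 0.16 (adjusted p = 0.119). Calr in brain did not pass (0.06, adjusted p = 0.607).

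Sdf2l1, a partner of BiP and J proteins in the ER lumen, fell in both tissues. Sdf2l1 read 10.04, 10.07 and 9.93 in differentiated spinal cord cultures, against 10.70, 10.73 and 10.65 in proliferative ones. Brain Sdf2l1 read 9.63, 9.42 and 9.46 in differentiated cultures, against 10.22, 9.65 and 9.89 in proliferative ones. The spinal cord groups stood well apart, and in brain the lowest proliferative array was just above the highest differentiated one. Sdf2l1 fell in spinal cord (-0.68 ± 0.13, adjusted p = 8.88e-04) and in brain (-0.41 ± 0.13, adjusted p = 0.0173), the second with adjusted p up to 0.0923 over alternatives. The responses of Sdf2l1 did not differ past the test (-0.26, adjusted p = 0.273).

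Herpud1 and Edem1 act in ER-associated degradation, by which misfolded proteins are drawn out of the ER. Herpud1 was 9.60, 9.82 and 9.61 in differentiated spinal cord cultures, against 8.92, 9.38 and 9.29 in proliferative ones. Brain Herpud1 was 8.68, 8.99 and 9.33 in differentiated cultures, against 9.27, 9.02 and 9.15 in proliferative ones. The spinal cord groups did not overlap and the brain groups did. Herpud1 rose in spinal cord (0.48 ± 0.17, adjusted p = 0.0339) and did not pass in brain (-0.15, adjusted p = 0.491). Without proliferative spinal cord replicate 1 that rise was 0.35 (adjusted p = 0.115), and the difference of responses, 0.63, adjusted p = 0.0466, was 0.50 (adjusted p = 0.0866). The rise passed in 13 of 18 alternatives and the difference of responses in 7 of 18, with adjusted p up to 0.117 and 0.116. Edem1, which helps extract glycoproteins, depended on the probe set. The brightest Edem1 probe set read 11.17, 10.80 and 10.84 in differentiated spinal cord cultures, against 10.97, 10.63 and 10.30 in proliferative ones. It read 10.37, 10.53 and 10.44 in differentiated brain cultures, against 10.78, 10.82 and 11.49 in proliferative ones. Only the brain groups did not overlap, and 1 proliferative brain array stood high. This probe set fell in brain (-0.58 ± 0.19, adjusted p = 0.0223), and its response was more positive in spinal cord (0.89 ± 0.27, adjusted p = 0.0178). The second probe set of Edem1 gave -0.01 in brain (adjusted p = 0.980) and -0.05 for the difference of responses (adjusted p = 0.924). The third passed neither in brain (-0.30, adjusted p = 0.299) nor for the difference of responses (0.56, adjusted p = 0.184). The third was higher in differentiated spinal cord than differentiated brain (0.63, adjusted p = 0.0405), where the brightest did not pass (0.49, adjusted p = 0.0556).

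Xbp1, the factor whose RNA IRE1 splices, was lowest in differentiated brain cultures. Xbp1 read 11.52, 11.44 and 11.26 in differentiated spinal cord cultures, against 11.84, 11.89 and 11.67 in proliferative ones. Brain Xbp1 read 10.94, 10.86 and 10.86 in differentiated cultures, against 11.74, 11.87 and 12.04 in proliferative ones. Differentiated arrays were lower than proliferative ones throughout each tissue, with a wider gap in brain. The fall was 1.99-fold in brain (-1.0 ± 0.10, adjusted p = 3.57e-06) and 1.32-fold in spinal cord (-0.40 ± 0.10, adjusted p = 0.00657), and the difference passed (0.60 ± 0.14, adjusted p = 0.00422). The spinal cord fall was -0.32 with each array centred on its median (adjusted p = 0.0892). The array values do not separate spliced from unspliced Xbp1 RNA.

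Manf and Creld2 encode small ER stress-induced proteins, both resident in the ER and secreted. Creld2 was 10.44, 10.11 and 10.07 in differentiated spinal cord cultures, against 10.62, 10.63 and 10.47 in proliferative ones. Brain Creld2 was 9.87, 10.01 and 10.18 in differentiated cultures, against 11.21, 11.15 and 11.01 in proliferative ones. The groups did not overlap in either tissue, and the brain gap was the wider. Creld2 fell 2.14-fold in brain (-1.10 ± 0.12, adjusted p = 5.86e-06) and 1.29-fold in spinal cord (-0.37 ± 0.12, adjusted p = 0.0237; not called with median centring, adjusted p = 0.113), with different responses (0.73 ± 0.17, adjusted p = 0.00311). Manf was 11.86, 11.74 and 11.67 in differentiated spinal cord cultures, against 12, 12.02 and 11.99 in proliferative ones. Brain Manf read 11.54, 11.62 and 11.52 in differentiated cultures, against 12.37, 12.12 and 12.49 in proliferative ones. Again no groups overlapped within a tissue. Manf fell in brain (-0.77 ± 0.09, adjusted p = 1.92e-05), and its spinal cord change just missed the threshold (-0.25 ± 0.09, adjusted p = 0.0501; -0.31, adjusted p = 0.00839 after quantile normalization). The responses of Manf differed (0.52 ± 0.13, adjusted p = 0.00677).

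Between differentiated cultures of the tissues, 8 of 13 ER chaperone genes were higher in spinal cord than in brain and 0 were lower, beside 18.5% and 22.9% of all probe sets, 41.4% either way (unadjusted, also 0 lower). Their median difference was 0.49, beside -0.06 over all. The largest were Pdia4 (0.91 ± 0.12, adjusted p = 4.91e-05), Dnajc3 (0.83 ± 0.11, adjusted p = 4.12e-05), Herpud1 (0.68 ± 0.17, adjusted p = 0.00495) and Pdia6 (0.65 ± 0.07, adjusted p = 9.14e-06). Xbp1, Sdf2l1, Hsp90b1 and Calr followed, at 0.52, 0.51, 0.34 and 0.31. Hspa5 and Manf did not pass (0.18, adjusted p = 0.126 and 0.20, adjusted p = 0.116). In proliferative cultures few of these genes differed: Sdf2l1 was higher in spinal cord (0.77 ± 0.13, adjusted p = 3.70e-04), Manf and Creld2 were lower (-0.32 ± 0.09, adjusted p = 0.0149 and -0.55 ± 0.12, adjusted p = 0.0024), and the other 10 did not pass, beside backgrounds of 19.4% higher and 18.5% lower (37.8% either way). Without proliferative spinal cord replicate 1, Edem1 was also lower there (-0.57, adjusted p = 0.0271), which made 3, and Edem1 was higher in differentiated spinal cord (0.49, adjusted p = 0.0300), which made 9. The tissue contrasts share their arrays with the differentiation contrasts and are not separate evidence.

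**Figure D2:**
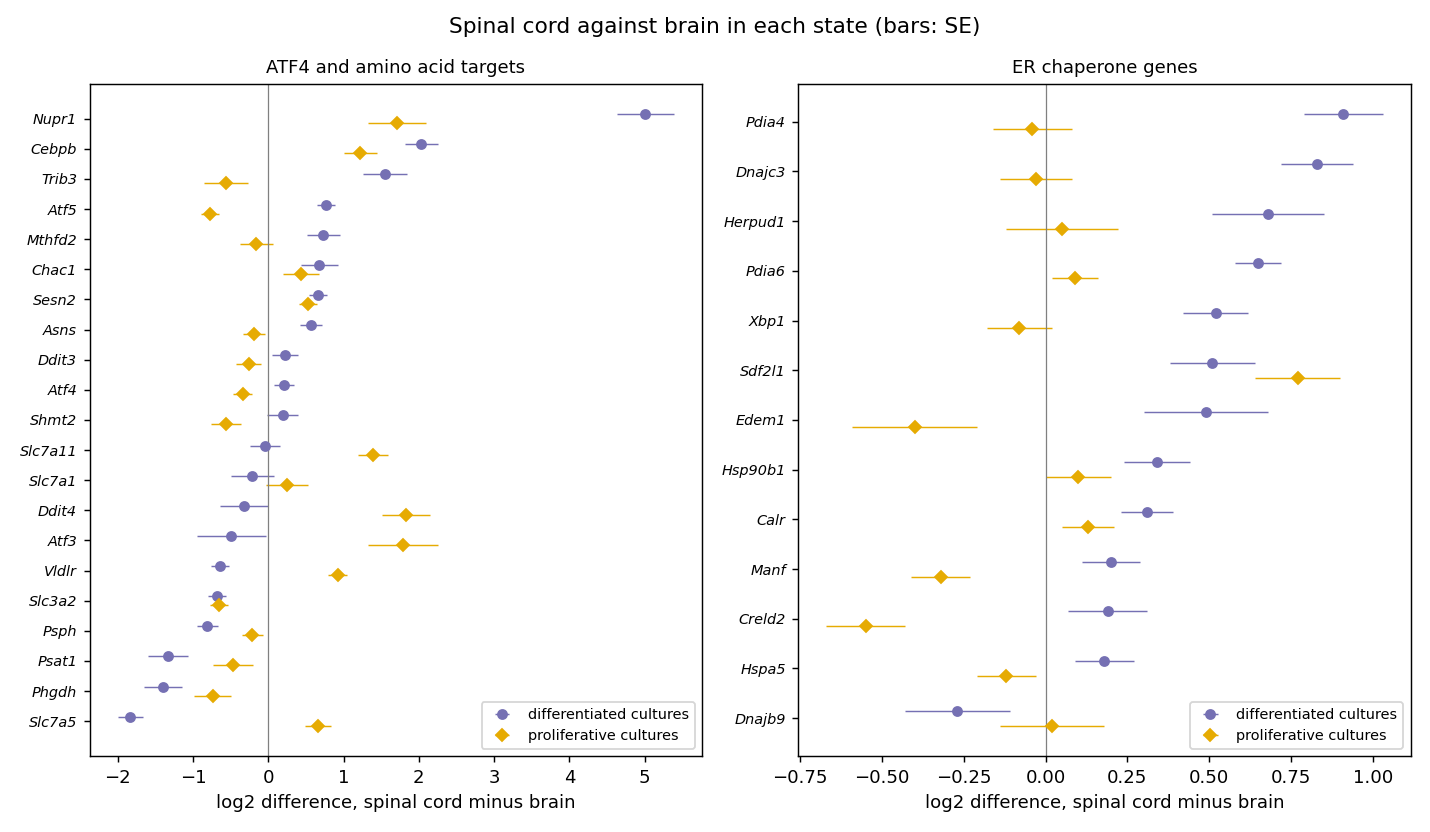
Log2 difference, spinal cord minus brain, of each of the 34 genes in differentiated and in proliferative cultures, with SE bars. Pdia4 lies at 0.91 in differentiated and -0.04 in proliferative cultures, and Nupr1 reaches 5.01 in differentiated ones.

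The ATF4 and amino acid genes did not move as 1 group. In brain differentiation 6 of 21 rose and 9 fell (28.6% and 42.9%, beside 23.7% and 23.1% of all probe sets), with a median of -0.32. In spinal cord differentiation 4 rose and 6 fell (19.0% and 28.6%, beside 18.3% and 22.0%), with a median of -0.19. Slc7a11 and Sesn2 rose in both tissues, Mthfd2 and Slc7a1 fell in both, and Atf5, Slc7a5 and Vldlr moved in opposite directions. The responses differed in 6 genes each way, beside 18.8% and 21.7% of all probe sets. Without proliferative spinal cord replicate 1 the counts were 8 and 9 in brain and 5 and 8 in spinal cord, the spinal cord median was 0.07, and the responses of 7 genes were more positive and of 5 more negative.

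**Figure D3:**
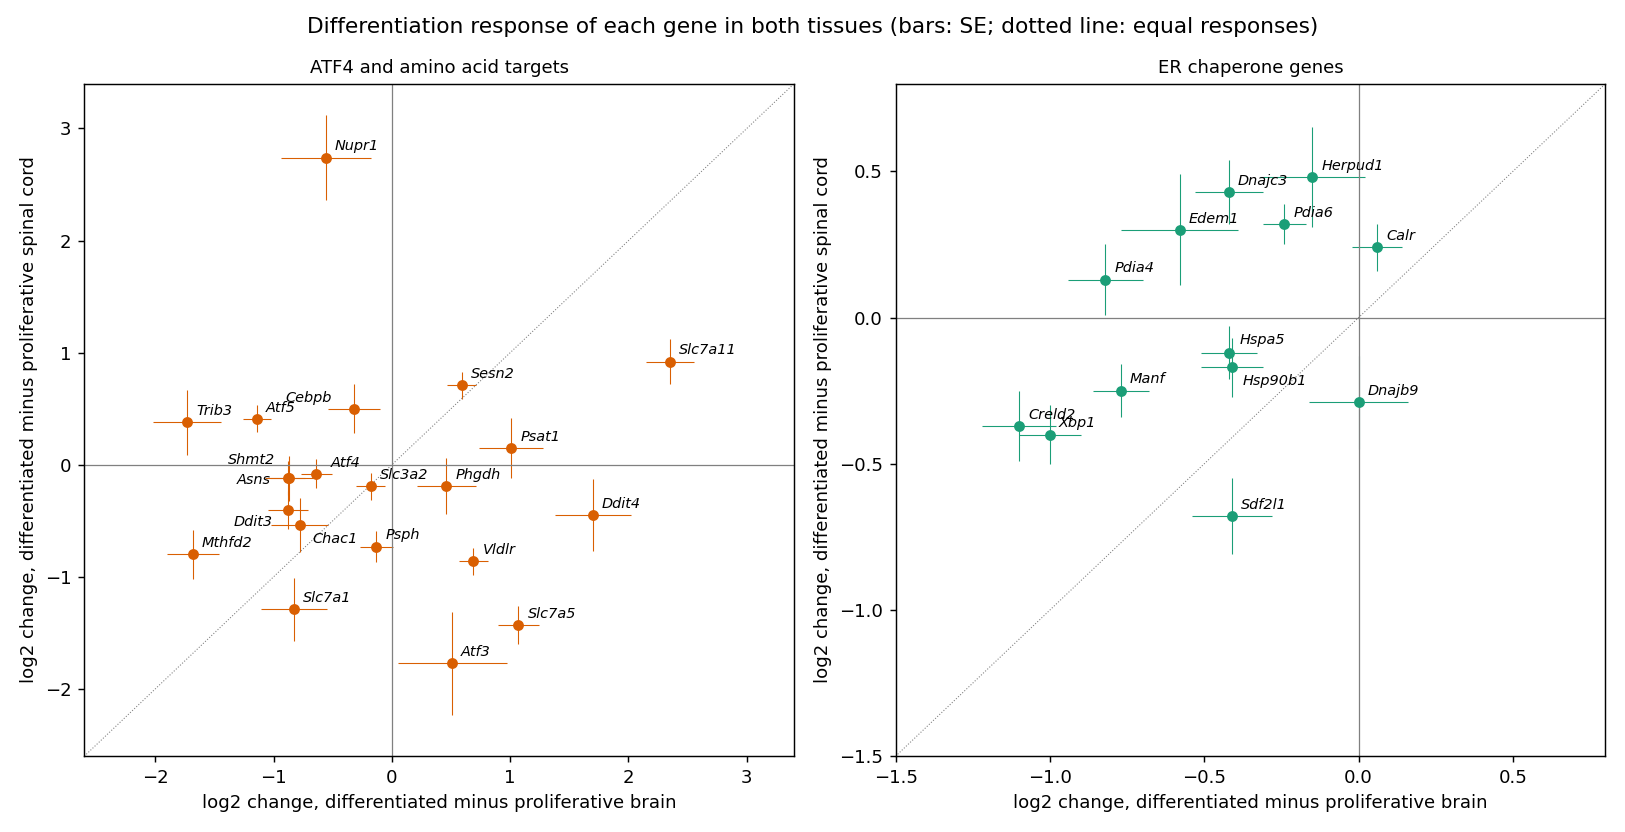
Log2 change on differentiation in spinal cord (vertical) against brain (horizontal) for the 21 ATF4 and amino acid genes and the 13 ER chaperone genes, with SE bars. Genes on the dotted line have equal responses. Nupr1 lies at 2.74 in spinal cord and -0.56 in brain, and most ER chaperone genes lie left of 0 and above the line.

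The amino acid response element core, searched as TGATGNAA on both strands, was in 4 of 20 promoters of the ATF4 list (20.0%), in 1 of 11 of the ER list and in 3.98% of all promoters. The windows are shown because ATF4 is known to bind elements of this kind, and a match this short is a description only.
Trib3 (chr3:161275537-161275564, plus strand): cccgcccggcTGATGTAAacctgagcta
Chac1 (chr3:126795954-126795981, minus strand): ctagcaggagTGATGCAAcggcggagaa
Nupr1 (chr1:190645939-190645966, plus strand): aagccctgtcTGATGCAAtctggccttt
Slc7a1 (chr12:11664448-11664475, plus strand): ggcgcgcggcTGATGAAAccggctcgga
Herpud1 (chr19:10614874-10614901, plus strand): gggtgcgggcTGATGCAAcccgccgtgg
The 4 ATF4 list genes with the core differed in their changes: Trib3 and Chac1 fell in brain and did not pass in spinal cord, Slc7a1 fell in both tissues, and Nupr1 rose in spinal cord.

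Atf4 itself, the factor translated when eIF2 is phosphorylated, was lower in differentiated brain cultures. Atf4 read 12.28, 12.24 and 12.17 in differentiated spinal cord cultures, against 12.62, 12.16 and 12.16 in proliferative ones. Brain Atf4 read 12.21, 11.95 and 11.90 in differentiated cultures, against 12.63, 12.80 and 12.54 in proliferative ones. The brain groups did not overlap, and 1 proliferative spinal cord array stood above the rest of that tissue. Atf4 RNA fell 1.55-fold in brain (-0.64 ± 0.13, adjusted p = 9.60e-04) and did not pass in spinal cord (-0.08, adjusted p = 0.632). The difference of responses, 0.55 ± 0.18, adjusted p = 0.0237, passed in 10 of 18 alternatives. ATF4 activity is set mostly by translation, which these arrays do not measure.

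Ddit3, or CHOP, a factor linked to cell death under lasting stress, also fell in brain. Ddit3 was 9.32, 9.08 and 9.20 in differentiated spinal cord cultures, against 9.25, 9.84 and 9.72 in proliferative ones. Brain Ddit3 was 9.21, 8.98 and 8.75 in differentiated cultures, against 9.74, 9.75 and 10.10 in proliferative ones. The brain groups were apart, and the spinal cord groups overlapped through 1 low proliferative array. The brain fall was -0.88 ± 0.17, adjusted p = 7.84e-04. Its spinal cord change, -0.40, adjusted p = 0.0767, was -0.58 without proliferative replicate 1 (adjusted p = 0.00872). Atf5, an ATF4-related factor with roles in neural progenitors, moved in opposite directions, with means of 10.18 ± 0.11 in differentiated and 9.77 ± 0.17 in proliferative spinal cord, and 9.41 ± 0.05 in differentiated and 10.55 ± 0.19 in proliferative brain cultures (SD, n = 3 each). Atf5 rose in spinal cord (0.41 ± 0.12, adjusted p = 0.0151) and fell in brain (-1.14 ± 0.12, adjusted p = 5.01e-06), and the responses differed (1.55 ± 0.17, adjusted p = 9.21e-06). The spinal cord rise of Atf5 did not pass without differentiated spinal cord replicate 1 (0.39, adjusted p = 0.0517) or replicate 2 (0.37, adjusted p = 0.0591).

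Atf3, an early stress factor, had the widest spread within a group. Atf3 was 7.98, 8.18 and 8.06 in differentiated spinal cord cultures, against 8.28, 10.65 and 10.61 in proliferative ones. Brain Atf3 was 8.62, 8.63 and 8.44 in differentiated cultures, against 8.35, 7.59 and 8.23 in proliferative ones. Replicates 2 and 3 of proliferative spinal cord were more than 2 units above replicate 1. Atf3 fell in spinal cord (-1.77 ± 0.46, adjusted p = 0.00743; -2.56, adjusted p = 3.40e-07 without replicate 1) and did not pass in brain (0.51, adjusted p = 0.395; 0.51, adjusted p = 0.0252 without proliferative spinal cord replicate 1). Nupr1, a small stress-induced chromatin protein, had the largest tissue difference of the 34 genes. Nupr1 was 12.17, 11.93 and 11.79 in differentiated spinal cord cultures, against 8.31, 9.80 and 9.57 in proliferative ones. Brain Nupr1 was 6.76, 6.99 and 7.12 in differentiated cultures, against 7.71, 6.66 and 8.19 in proliferative ones. All spinal cord arrays lay above all brain arrays, and differentiated spinal cord was highest. Nupr1 rose 6.67-fold in spinal cord (2.74 ± 0.38, adjusted p = 6.43e-05), did not pass in brain (-0.56, adjusted p = 0.241), and was 32.2-fold higher in differentiated spinal cord than differentiated brain (5.01 ± 0.38, adjusted p = 1.67e-07). Cebpb, a factor that pairs with ATF4, was likewise high in spinal cord. Cebpb read 12.27, 12.34 and 12.34 in differentiated spinal cord cultures, against 11.21, 12.38 and 11.87 in proliferative ones. Brain Cebpb read 10.24, 10.16 and 10.45 in differentiated cultures, against 10.59, 10.33 and 10.89 in proliferative ones. The spinal cord states overlapped, and no brain array reached a spinal cord one. Cebpb passed in neither differentiation contrast, and it was higher in spinal cord in both differentiated (2.03 ± 0.22, adjusted p = 6.01e-06) and proliferative cultures (1.22 ± 0.22, adjusted p = 7.12e-04). The summed fibroblast markers above were likewise highest in differentiated spinal cord and lower in brain than in spinal cord, and their part in these values was not tested.

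**Figure D4:**
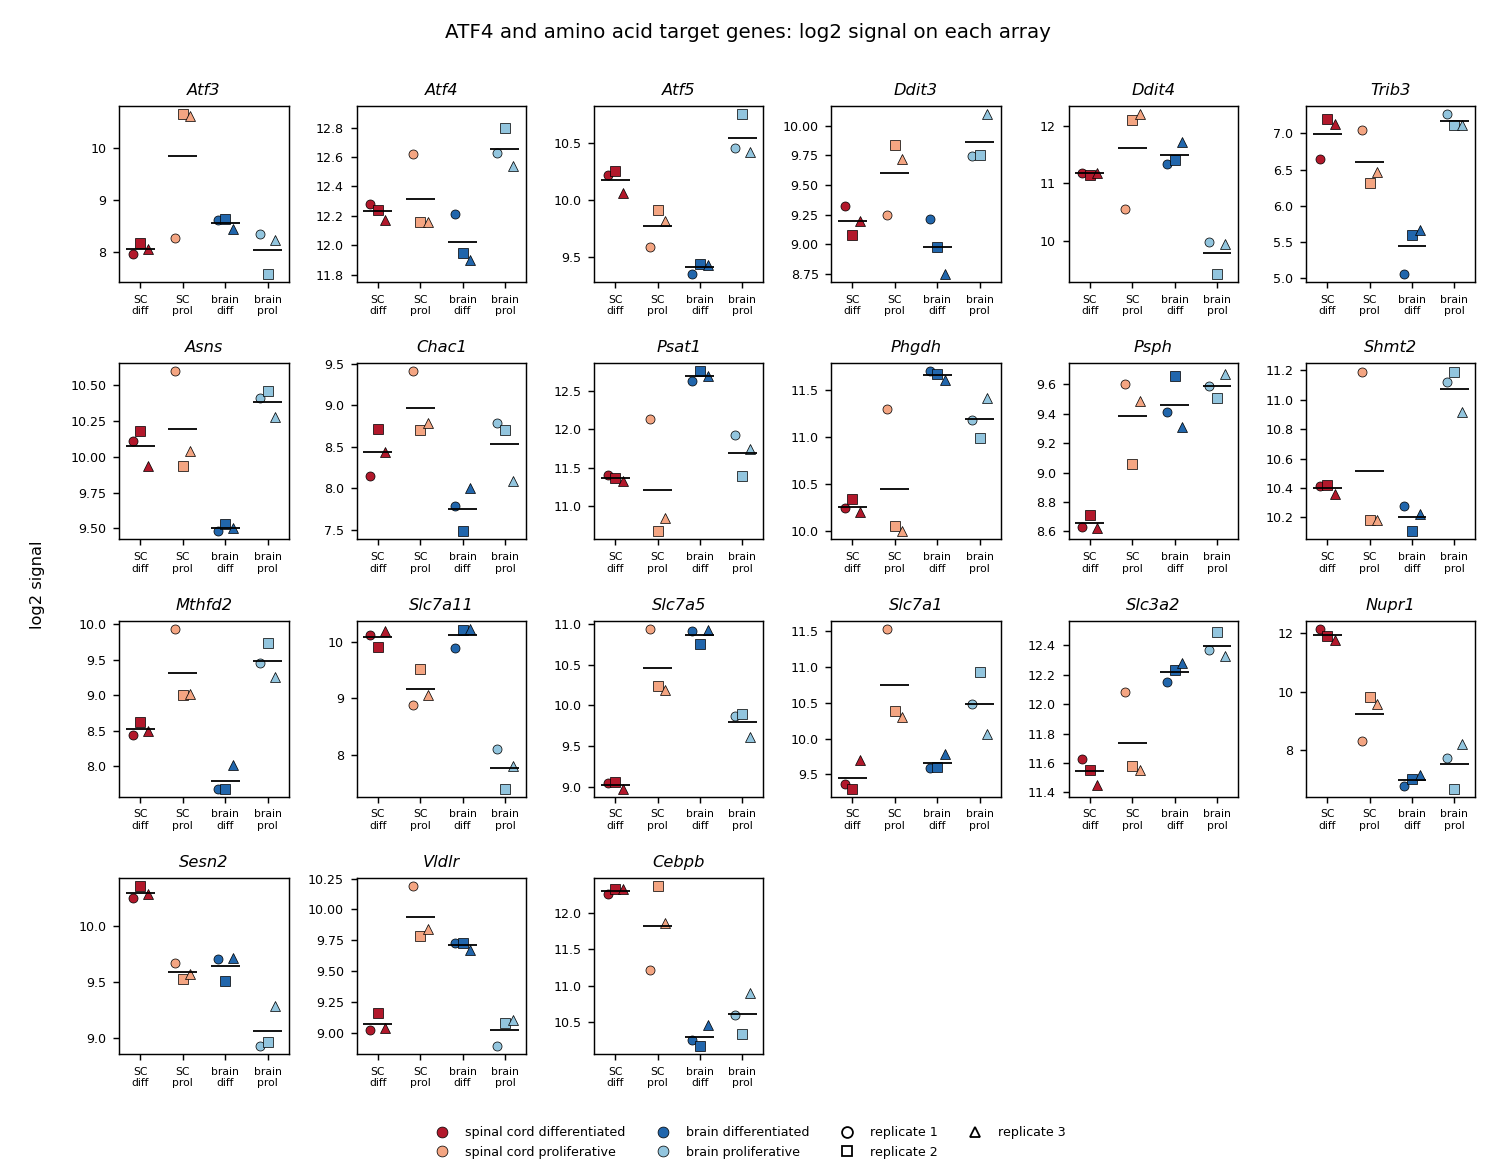
Log2 signal (vertical axis) of each of the 21 ATF4 and amino acid genes, 1 panel a gene, in the same 4 groups. Points are arrays and bars are group means. Proliferative spinal cord spreads widely for Atf3, from 8.28 to 10.65, and Nupr1 is highest in differentiated spinal cord.

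Among feedback and growth regulators, Trib3, a pseudokinase that binds ATF4 and restrains it, was dim in differentiated brain. Trib3 was 6.64, 7.20 and 7.13 in differentiated spinal cord cultures, against 7.05, 6.31 and 6.46 in proliferative ones. Brain Trib3 was 5.06, 5.60 and 5.66 in differentiated cultures, against 7.27, 7.12 and 7.12 in proliferative ones. The differentiated brain arrays were all under their 40th percentiles, so a fold against them is a bound. Trib3 was at least 1.83-fold lower in differentiated than in proliferative brain cultures (adjusted p = 2.41e-04), with no spinal cord change past the test (0.38, adjusted p = 0.315). The difference of responses was at least 1.25 log2 with differentiated brain at its floor of 6.30 (adjusted p = 9.51e-04). The second probe set of Trib3 also fell in brain and gave adjusted p = 0.063 for the difference. Chac1, which breaks down glutathione, fell in brain (-0.78 ± 0.24, adjusted p = 0.0156) and was higher in differentiated spinal cord than differentiated brain (0.68 ± 0.24, adjusted p = 0.0332). Those calls of Chac1 were lost in some alternatives, with adjusted p up to 0.07 and 0.131.

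Ddit4, or REDD1, and Sesn2 both restrain the growth kinase mTORC1, and both rose in brain. Ddit4 was 11.18, 11.15 and 11.19 in differentiated spinal cord cultures, against 10.55, 12.10 and 12.21 in proliferative ones. Brain Ddit4 was 11.34, 11.41 and 11.72 in differentiated cultures, against 9.99, 9.43 and 9.95 in proliferative ones. In brain every differentiated array was above every proliferative one, and the spinal cord groups overlapped. Ddit4 rose 3.25-fold in brain (1.70 ± 0.32, adjusted p = 7.27e-04) and did not pass in spinal cord (-0.45, adjusted p = 0.301), where the change without proliferative replicate 1 was -0.98 (adjusted p = 1.97e-04). The responses of Ddit4 differed (-2.15 ± 0.46, adjusted p = 0.00206). Sesn2 averaged 10.30 ± 0.06 in differentiated and 9.59 ± 0.08 in proliferative spinal cord, and 9.65 ± 0.11 in differentiated and 9.06 ± 0.20 in proliferative brain cultures (SD, n = 3 each). It rose in both (0.71 ± 0.12, adjusted p = 2.76e-04 in spinal cord and 0.59 ± 0.12, adjusted p = 0.00102 in brain), and the responses did not differ past the test (0.13, adjusted p = 0.578).

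Of the enzymes, Asns makes asparagine and is the standard amino acid response gene. Asns was 10.11, 10.18 and 9.94 in differentiated spinal cord cultures, against 10.60, 9.94 and 10.04 in proliferative ones. Brain Asns was 9.48, 9.53 and 9.50 in differentiated cultures, against 10.41, 10.46 and 10.28 in proliferative ones. The brain groups were far apart and tight, and the spinal cord groups overlapped. Asns fell 1.84-fold in brain (-0.88 ± 0.15, adjusted p = 2.53e-04), did not pass in spinal cord (-0.12, adjusted p = 0.569) and differed in response (0.76 ± 0.21, adjusted p = 0.00939). Mthfd2, a mitochondrial folate enzyme common in dividing cells, fell in both tissues. Mthfd2 was 8.44, 8.62 and 8.50 in differentiated spinal cord cultures, against 9.94, 9.0 and 9.01 in proliferative ones. Brain Mthfd2 was 7.68, 7.68 and 8.02 in differentiated cultures, against 9.45, 9.73 and 9.25 in proliferative ones. All differentiated arrays were below the proliferative ones of their tissue. The falls were 3.21-fold in brain (-1.68 ± 0.22, adjusted p = 3.85e-05) and 1.74-fold in spinal cord (-0.80 ± 0.22, adjusted p = 0.0115), and their difference passed in 6 of 18 alternatives (0.88, adjusted p = 0.039 as fitted).

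The 3 enzymes of serine synthesis and Shmt2, which passes serine carbon to folate, did not change together. Psat1 averaged 11.36 ± 0.03 in differentiated and 11.21 ± 0.80 in proliferative spinal cord cultures, and 12.70 ± 0.06 in differentiated and 11.69 ± 0.28 in proliferative brain cultures (SD, n = 3 each). It rose in brain (1.01 ± 0.27, adjusted p = 0.00822), and its spinal cord change, 0.15, adjusted p = 0.699, was 0.61 without proliferative replicate 1 (adjusted p = 0.00183). Phgdh, the first enzyme of the path, passed in neither tissue (0.46, adjusted p = 0.155 in brain; -0.19, adjusted p = 0.582 in spinal cord), and in brain it was called without proliferative spinal cord replicate 1 (0.46, adjusted p = 0.00181). Psph, the last enzyme, fell in spinal cord (-0.73 ± 0.14, adjusted p = 0.00116) and not past the test in brain (-0.13, adjusted p = 0.488), and the difference of its responses, -0.60, adjusted p = 0.0302, was -0.49 without proliferative spinal cord replicate 1 (adjusted p = 0.0549). That difference passed in 10 of 18 alternatives. In differentiated cultures Phgdh, Psat1 and Psph were all lower in spinal cord than in brain, with differences of -1.40 ± 0.25, -1.33 ± 0.27 and -0.81 ± 0.14 log2. Their adjusted p-values there were 5.49e-04, 0.00147 and 4.71e-04. Shmt2 fell in brain (-0.87 ± 0.20, adjusted p = 0.0031), with -0.12, adjusted p = 0.676 in spinal cord. The difference of Shmt2 responses was 0.75, adjusted p = 0.052, and 1.09 without proliferative spinal cord replicate 1 (adjusted p = 2.1e-05).

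Among the amino acid transporters, Slc7a11, the cystine importer xCT, rose in both tissues. Slc7a11 was 10.13, 9.92 and 10.20 in differentiated spinal cord cultures, against 8.88, 9.53 and 9.07 in proliferative ones. Brain Slc7a11 was 9.89, 10.22 and 10.24 in differentiated cultures, against 8.11, 7.40 and 7.80 in proliferative ones. Differentiated arrays lay above proliferative ones in both tissues. The rise was 5.09-fold in brain (2.35 ± 0.20, adjusted p = 6.14e-07) and 1.9-fold in spinal cord (0.92 ± 0.20, adjusted p = 0.00194), a difference of -1.42 ± 0.28, adjusted p = 0.00105. Slc7a5, the large neutral amino acid carrier LAT1, moved in opposite directions. Slc7a5 was 9.05, 9.06 and 8.98 in differentiated spinal cord cultures, against 10.94, 10.24 and 10.19 in proliferative ones. Brain Slc7a5 was 10.91, 10.75 and 10.92 in differentiated cultures, against 9.87, 9.90 and 9.61 in proliferative ones. No groups overlapped within a tissue, and differentiated spinal cord was lowest. Slc7a5 fell 2.69-fold in spinal cord (-1.43 ± 0.17, adjusted p = 1.56e-05) and rose 2.1-fold in brain (1.07 ± 0.17, adjusted p = 1.49e-04), and the responses differed (-2.50 ± 0.24, adjusted p = 2.50e-06).

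Slc7a1, the cationic amino acid carrier CAT1, fell in both tissues. Slc7a1 was 9.37, 9.30 and 9.70 in differentiated spinal cord cultures, against 11.54, 10.39 and 10.31 in proliferative ones. Brain Slc7a1 was 9.59, 9.61 and 9.79 in differentiated cultures, against 10.48, 10.93 and 10.06 in proliferative ones. Within each tissue the groups were apart. Slc7a1 fell in spinal cord (-1.29 ± 0.28, adjusted p = 0.00225) and in brain (-0.83 ± 0.28, adjusted p = 0.0256), the second called in 14 of 19 alternatives. Slc3a2, the heavy chain that Slc7a5 and Slc7a11 need to reach the membrane, passed in neither differentiation contrast (-0.19, adjusted p = 0.233 in spinal cord; -0.18, adjusted p = 0.26 in brain). Slc3a2 was lower in spinal cord in differentiated (-0.68 ± 0.12, adjusted p = 5.10e-04) and proliferative cultures (-0.66 ± 0.12, adjusted p = 8.04e-04). Vldlr, a lipoprotein receptor that is also an ATF4 target, fell in spinal cord (-0.86 ± 0.12, adjusted p = 8.65e-05) and rose in brain (0.69 ± 0.12, adjusted p = 4.18e-04). Of its 4 probe sets, the second did not pass in brain (0.35, adjusted p = 0.0974) and the fourth did not pass in spinal cord (-0.42, adjusted p = 0.0762), while the difference of responses passed for all 4.

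In the tissue contrasts, 8 of 21 ATF4 list genes were higher in spinal cord and 6 lower in differentiated cultures (38.1% and 28.6%, beside 18.5% and 22.9%). In proliferative cultures 8 were higher and 5 lower (38.1% and 23.8%, beside 19.4% and 18.5%). Nupr1, Sesn2 and Cebpb were higher in spinal cord in both states, Sesn2 not past the test in proliferative cultures with median centring (0.32, adjusted p = 0.0863). Slc7a11 and Ddit4 were higher in proliferative spinal cord than proliferative brain (1.39 ± 0.20, adjusted p = 9.57e-05 and 1.83 ± 0.32, adjusted p = 5.95e-04), and neither passed in differentiated cultures (-0.04, adjusted p = 0.899 and -0.32, adjusted p = 0.468). Slc7a5 and Vldlr were lower in differentiated spinal cord than differentiated brain and higher in the proliferative contrast. The proliferative count of 5 lower was 2 to 8 with 1 array left out, and 8 without proliferative spinal cord replicate 1. Asns (-0.39, adjusted p = 0.00758), Psat1 (-0.93, adjusted p = 6.14e-05) and Mthfd2 (-0.47, adjusted p = 0.0339) were the genes added there. Without that array Atf3 was also lower in differentiated spinal cord than differentiated brain (-0.49, adjusted p = 0.0314), which made 7. The difference of Atf3 in proliferative cultures, 1.79, adjusted p = 0.00767, was 2.57 without it (adjusted p = 2.81e-07), and that of its responses, -2.28, adjusted p = 0.0127, was -3.06 (adjusted p = 8.52e-07).

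Other genes of the same pathways were read from 4 further lists. Aminoacyl-tRNA synthetases, which charge tRNAs and include many ATF4 targets, fell in brain in 16 of 19 tested (84.2%) and rose in 0, also 0 at an unadjusted p under 0.05, with a median of -0.76, beside 23.1% and 23.7% of all probe sets. In spinal cord differentiation 1 of 19 rose and 5 fell (5.26% and 26.3%), the second share near the background of 18.3% and 22.0%, with a median of -0.10. Their responses were more positive in spinal cord for 15 of 19 (78.9%, beside 18.8%), led by Rars1 (1.26 ± 0.19, adjusted p = 1.36e-04), Vars1 (1.07 ± 0.30, adjusted p = 0.0115) and Gars1 (1.05 ± 0.18, adjusted p = 4.47e-04). Proliferative spinal cord was lower than proliferative brain for 14 of 19 (73.7%, beside 18.5%), although its replicate 1 had a list mean of 11.04, against 10.63 and 10.61 on its other arrays. The largest brain falls were those of Vars1 (-1.31 ± 0.21, adjusted p = 2.13e-04), Iars1 (-1.23 ± 0.16, adjusted p = 3.21e-05) and Rars1 (-1.10 ± 0.13, adjusted p = 1.62e-05), the synthetases for valine, isoleucine and arginine.

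**Figure D5:**
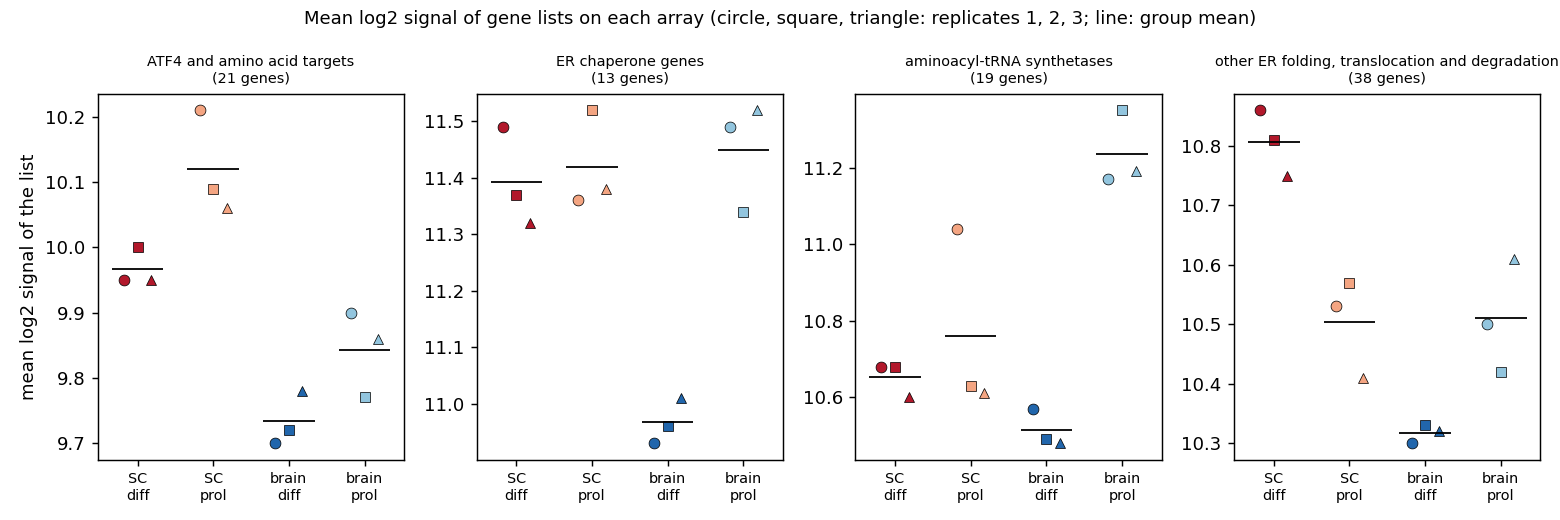
Mean log2 signal over the tested genes of each list, per array, in the 4 groups, with 1 panel a list and bars for group means. The synthetase means are 10.48 to 10.57 in differentiated brain and 11.17 to 11.35 in proliferative brain cultures, and the level is not comparable between panels.

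Other ER folding, translocation and degradation genes rose in spinal cord for 18 of 38 tested (47.4%) and fell for 5 (13.2%), beside 18.3% and 22.0% of all probe sets, with a median of 0.30. In brain 6 rose and 15 fell (15.8% and 39.5%, beside 23.7% and 23.1%), with a median of -0.13. Kdelr3, a receptor that returns escaped ER proteins, rose in spinal cord (1.93 ± 0.20, adjusted p = 4.83e-06) and fell in brain (-1.36 ± 0.20, adjusted p = 7.90e-05), with a difference of responses of 3.29 ± 0.28, adjusted p = 9.51e-07. Txndc5, an ER thioredoxin protein, and Sec24d, a coat protein of ER export vesicles, rose in spinal cord (1.38 ± 0.10, adjusted p = 2.93e-07 and 1.26 ± 0.12, adjusted p = 1.84e-06). Fkbp11, an ER prolyl isomerase, and Ero1a, the oxidase that recharges disulfide isomerases, fell in brain (-1.20 ± 0.17, adjusted p = 8.28e-05 and -0.92 ± 0.15, adjusted p = 1.79e-04). Fibroblast marker genes rose in spinal cord for 9 of 12 (75.0%, beside 18.3%), and in brain 2 rose and 2 fell, Dcn and Lum (16.7% each, beside 23.7% and 23.1%), and their part in these values was not tested.

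Stress sensors and eIF2 regulators gave 3 risen and 3 fallen of 15 in brain (20.0% each, beside 23.7% and 23.1%), and 4 and 3 in spinal cord (26.7% and 20.0%, beside 18.3% and 22.0%), shares near those of all probe sets. Gadd45a, a growth arrest gene, and Eif2ak2, the eIF2 kinase PKR, rose in brain (1.82 ± 0.21, adjusted p = 1.25e-05 and 1.81 ± 0.22, adjusted p = 2.00e-05), and Eif2s1, which encodes the phosphorylated eIF2 subunit, fell (-1.05 ± 0.10, adjusted p = 1.47e-06). Creb3l1, an ER-anchored factor known for collagen secretion, rose 4.11-fold in spinal cord (2.04 ± 0.32, adjusted p = 2.08e-04). Eif2ak4, the amino acid sensor GCN2, fell there (-0.93 ± 0.26, adjusted p = 0.0106). Creb3l1 was 9.55-fold higher in differentiated spinal cord than differentiated brain (3.25 ± 0.32, adjusted p = 2.42e-06).

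Further ATF4 targets and amino acid genes gave 8 risen and 10 fallen of 23 in brain (34.8% and 43.5%, beside 23.7% and 23.1%), and 4 and 6 in spinal cord (17.4% and 26.1%, near the 18.3% and 22.0% of all probe sets). Slc1a5, the glutamine carrier ASCT2, and Gdf15, a secreted stress hormone, fell in brain (-2.48 ± 0.21, adjusted p = 7.54e-07 and -2.01 ± 0.31, adjusted p = 1.22e-04), and Cbs, of cysteine synthesis, was at least 2.79-fold higher in differentiated brain, proliferative brain being dim for it (adjusted p = 2.30e-04). In spinal cord Gpt2, an alanine transaminase, fell (-1.90 ± 0.19, adjusted p = 3.67e-06) and Pck2, the mitochondrial PEPCK, rose (1.70 ± 0.21, adjusted p = 2.08e-05). The responses of Gpt2, Slc1a5 and Pck2 differed by -3.06 ± 0.27, 2.74 ± 0.30 and 2.68 ± 0.29, with adjusted p of 1.17e-06, 9.05e-06 and 8.32e-06. Ndrg1, a stress-responsive differentiation gene, was 16.2-fold higher in proliferative spinal cord than proliferative brain (4.02 ± 0.12, adjusted p = 1.86e-10), and Cth, which makes cysteine, was 10.8-fold lower there (-3.43 ± 0.37, adjusted p = 8.70e-06).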

How the data were processed

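The authors deposited log2 signals per probe set in the series' value table. The submitters' processing notes name MAS5 and affy, both without a version. On the linear scale each array's mean, with 2% trimmed at each end, was 500, the scaling of MAS5, and genes were not centred. Scanner files were not used here. A probe set was tested if 3 of 12 arrays had it above their own 40th percentile, which kept 20834 of 31042. Genes were named from the platform annotation. The brightest probe set stood for its gene.

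One limma model (lmFit, eBayes with trend, 8 residual degrees of freedom, R 4.3.3, limma 3.58.1) held a mean per group, with no block. Its contrasts were both differentiation responses, both tissue differences (spinal cord minus brain) and the difference of responses. P-values were Benjamini-Hochberg adjusted over all probe sets tested, with a threshold of 0.05, and the fit was tested on simulated data. A fold against a group with 3 arrays under the percentile is given as "at least". The number of arrays limits the precision, and errors on means are SD with n = 3.

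The members, gene lists and naming rule were chosen with earlier results of these data known. Per-array values went to Atf4, Ddit3, Asns, Hspa5 and Xbp1 and to the 4 largest called changes of each list and contrast, and other lists gave up to 3 genes a contrast. No pairing by replicate number was seen: deviations of same-numbered arrays correlated at -0.119 to 0.048, and 0 of 12 arrays correlated best with their own number. With 3 arrays a group this cannot settle whether same-numbered arrays share an animal or preparation. The alternatives were median centring, quantile normalization, no filter, a pseudocount of 64, a replicate block, no variance trend, the second probe set, and leaving out each array.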

Additional observations from a re-analysis of the deposited data

Results flagged for a closer look

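For 5 genes the tissues moved in opposite directions and the interaction passed the test. The share of all probe sets tested that did both was not counted, and the interaction alone passed for 40.5% of them. The spinal cord response minus the brain response was 1.55 log2 for Atf5, -2.50 for Slc7a5, -1.55 for Vldlr, 0.86 for Dnajc3 and 0.56 for Pdia6. Each gene passed in both tissues as fitted, Atf5, Dnajc3 and Pdia6 rising in spinal cord and falling in brain, and Slc7a5 and Vldlr falling in spinal cord and rising in brain. The interaction is the difference of these changes and is not separate evidence. The spinal cord rise of Atf5 and the brain fall of Pdia6 were lost in some alternatives. For Vldlr not every probe set passed in both tissues. Groups of 3 arrays are too small for a test of outlying arrays.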

How the results depend on the processing

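Of 100 calls of the 34 genes, median centring kept 96 and gained 8, quantile normalization kept 96 and gained 6, no filter kept 95, no variance trend kept 89, the pseudocount kept 100 and gained 3, and leaving out 1 array kept 88 to 96 and gained 0 to 13, the 13 without proliferative spinal cord replicate 1. The second probe set kept 8 of 12, and it gave the Edem1 difference of responses as -0.05 (adjusted p = 0.924), no longer called. With a replicate block 98 calls were kept: Calr in spinal cord (adjusted p = 0.063) and Mthfd2 in the difference of responses (adjusted p = 0.055) were lost, Shmt2 was gained there (adjusted p = 0.0414), ER genes risen in spinal cord numbered 3, and no other count changed. Under median centring ER genes fallen in spinal cord numbered 1, ATF4 list genes lower in proliferative spinal cord 8 and ER genes lower there 4. Without the filter, ATF4 list genes lower in proliferative spinal cord numbered 3. Without the trend they numbered 2, and ER genes risen in spinal cord numbered 2. Under quantile normalization ER genes fallen in spinal cord numbered 6 and ER genes higher in proliferative spinal cord 3. The cause of these shifts was not tested. Centring moved the median over all probe sets to -0.15 in brain differentiation, -0.22 in the proliferative tissue contrast and 0.19 in the difference of responses. Among all calls the share risen was then 38.2%, 31.7% and 61.3%, against 50.6%, 51.2% and 46.4% as deposited. ER medians were then -0.57, -0.24 and 0.79, and the ATF4 list medians -0.47, -0.36 and 0.36. With 1 array left out, ER genes ranged from 8 to 10 fallen and stayed at 0 risen in brain, 2 to 4 risen and 2 to 4 fallen in spinal cord, 1 higher and 1 to 3 lower in the proliferative tissue contrast, 7 to 9 higher and 0 lower in the differentiated one, and 6 to 10 more positive and 0 more negative in the difference of responses. ATF4 list genes ranged from 6 to 8 risen and 7 to 9 fallen in brain, 3 to 5 risen and 6 to 8 fallen in spinal cord, 8 higher and 2 to 8 lower in proliferative cultures, 6 to 8 higher and 6 to 7 lower in differentiated ones, and 4 to 7 and 5 to 7 in the difference of responses. ER genes risen in spinal cord numbered 2 without any 1 differentiated spinal cord array or without proliferative spinal cord replicate 1. ER genes lower in the proliferative contrast numbered 1 without proliferative brain replicate 1 or 3. ATF4 list genes lower there numbered 8 without proliferative spinal cord replicate 1, 2 without replicate 2 or 3 of that group or proliferative brain replicate 1, and 3 without any 1 of proliferative brain replicates 2 and 3, differentiated brain replicates 2 and 3 and the differentiated spinal cord arrays. Signals near background and 3 arrays a group limit what small changes can be called.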
